A study of Mus musculus with 10 samples.

Results

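The genes described here build the immunoproteasome and load peptides onto MHC class I molecules. They are 10 named genes of the 23337 in the deposited data: Psmb8, Psmb9, Psmb10, Psme1, Psme2, Tap1, Tap2, Tapbp, Tapbpl and Erap1. They were listed by symbol, with earlier results of these data known. Each of them had a row in all 10 libraries. The RNA came from mouse embryonic fibroblasts, cells of connective tissue, which had been immortalised and were grown in DMEM with serum. The groups were KO-labelled cells given mouse interferon-β (IFN-β, a type I interferon) at 5000 IU/ml for 6 h (n = 2), KO-labelled cells left untreated (n = 2), WT-labelled cells given the same IFN-β (n = 3), and WT-labelled cells left untreated (n = 3). The label KO stands for a knockout of Slfn2, a Schlafen family gene that interferon induces, and WT for cells with intact Slfn2. The protocol has cells plated in duplicate or triplicate, and replicates are called platings for that reason. Every p-value measures only the spread between these samples, which may be technical. The labels do not say how many independent lines there were of each genotype, so a difference between genotypes and a difference between lines cannot be told apart.

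The proteasome cuts proteins into peptides with a trio of catalytic subunits, Psmb5, Psmb6 and Psmb7. Interferon is known to induce their replacements Psmb8, Psmb9 and Psmb10, which make the immunoproteasome, together with the activator ring of Psme1 and Psme2. The transporter made of Tap1 and Tap2 moves the peptides into the endoplasmic reticulum. There Erap1 trims them, tapasin (Tapbp) holds the class I molecule beside the transporter while it is loaded, and Tapbpl edits the bound peptide.

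The libraries held 13565815 to 16329729 reads, and a floor of 3 reads equals 2.73 to 3.29 normalised reads, the unit used throughout (read counts divided by a size factor for the library). Slfn2 itself had 75 and 171 normalised reads in KO-labelled cells with IFN-β and 46.1 and 34.9 untreated, against 527, 449 and 573 in WT-labelled cells with IFN-β and 18.7, 17.4 and 15.5 untreated. Reads over the whole gene do not show which part was deleted, so the genotypes are named by their labels. Libraries of the same replicate number deviated together from their group means, with correlations of 0.48 to 0.871 across groups, and of at most 0.318 between different numbers. In the KO-labelled groups of 2, the deviations of numbers 1 and 2 are mirror images. The contrast between same and different numbers is therefore partly built in. The fit with the replicate number as a block therefore stands beside the fit without it. The fibroblast markers summed to 347293 to 469813 normalised reads in KO-labelled cells with IFN-β, 299562 to 468820 in untreated KO-labelled cells, 209503 to 305384 in WT-labelled cells with IFN-β and 207041 to 310551 in untreated WT-labelled cells. Of these 10 markers, Dcn and Lum were lower in KO-labelled than in WT-labelled cells in both treatments, and with the block Fn1 and Col1a2 were also called, both higher in KO-labelled cells in both treatments. Leukocytes hold immunoproteasomes without interferon, and their markers, of which 3 of 9 exceeded the floor in any library, summed to 145 to 178.5 normalised reads in KO-labelled cells with IFN-β, 157 to 205.5 in untreated KO-labelled cells, 260.0 to 318 in WT-labelled cells with IFN-β and 294 to 418 in untreated WT-labelled cells. The 3 above the floor were Cd14 (58.3 to 345.7 normalised reads over all libraries), Cd68 (26.8 to 46.3) and Csf1r (15.8 to 58.4). Cd14 was called lower in KO-labelled cells in both treatments with the block. Of all genes tested, 6.55% were called between genotypes with IFN-β and 6.23% untreated without the block. With it the shares were 26% and 26.6%. The pan-leukocyte gene Ptprc was at 1.88 normalised reads or less in every library, and Cd3e was at 0 in all of them. In such bulk samples fewer cells of a type and less RNA per cell cannot be told apart, and the part of these markers in the results was not tested.

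All 10 genes had a higher mean with IFN-β in both labelled genotypes, and each was higher with IFN-β in 5 of 5 pairs of libraries that share genotype and number. The shares of all genes that did the same were not counted. In the limma fit on log2 of normalised reads plus 1, with p-values adjusted by Benjamini-Hochberg over 12313 genes and called below 0.05, 5 of the 10 rose in KO-labelled cells and 6 of the 10 in WT-labelled cells. In these fits 1.83% of all genes rose in KO-labelled cells and 2.21% in WT-labelled cells. With the replicate block, limma called all 10 higher in both genotypes, where 3.37% of all genes rose in KO-labelled and 4.68% in WT-labelled cells. On leaving out single platings the counts without the block were 2 to 5 in KO-labelled cells (2 without KO-labelled IFN-β plating 2, 3 without KO-labelled untreated plating 1, WT-labelled untreated plating 3 or WT-labelled IFN-β plating 2) and 3 to 7 in WT-labelled cells (3 without WT-labelled untreated plating 1 or IFN-β plating 2 or 3). Fitted on KO-labelled libraries alone, limma called 0 of the 10 in those cells and 10 genes in all. The median log2 fold change of the 10 was 2.11 in KO-labelled and 2.00 in WT-labelled cells, beside −0.03 for all genes tested in each. Tap1, Psmb8 and Psmb9 passed the filter on low counts only through the IFN-β libraries, so that their calls follow in part from the filter. Among the other 7, limma without the block called 2 in KO-labelled cells (Psmb10 and Erap1) and 3 in WT-labelled cells (Psmb10, Erap1 and Tapbp).

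**Figure D1:**
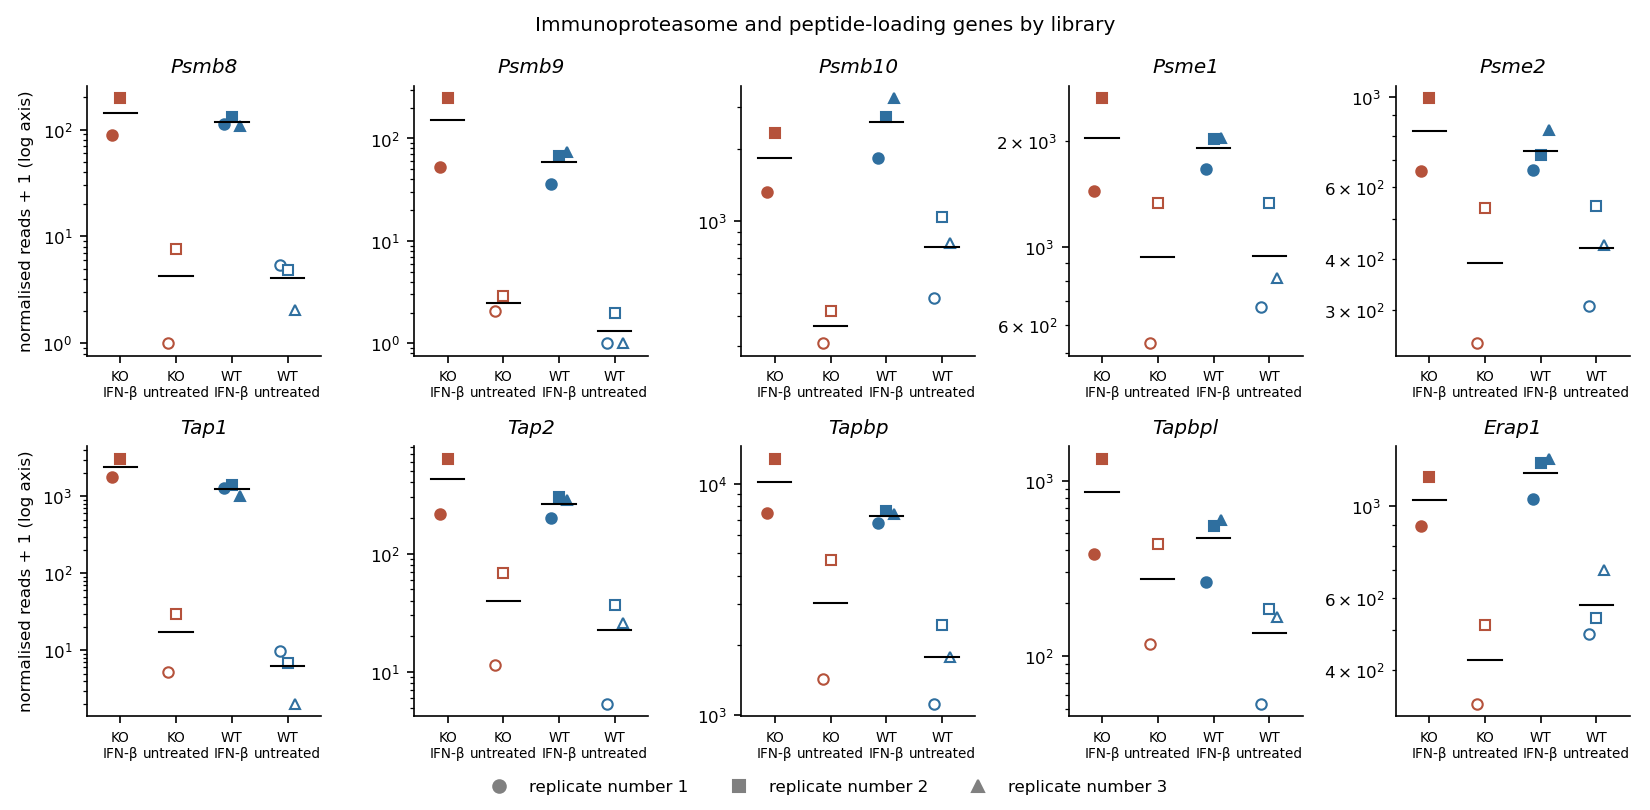
Normalised reads plus 1 (log axis) of the 10 genes in each library, by group. Marker shape gives the replicate number, filled markers are IFN-β libraries, open markers are untreated ones, and black lines are group means. Every IFN-β library lies above every untreated library of its genotype, except for Tapbpl in KO-labelled cells.

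Every IFN-β library was above every untreated library of its genotype for 9 of the 10 genes in KO-labelled cells and for all 10 in WT-labelled cells. The same held for 10.7% of all genes tested in KO-labelled and 7.48% in WT-labelled cells. Tapbpl was the exception, in KO-labelled cells.

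Psmb8, Psmb9 and Tap1 were close to undetected without IFN-β. Psmb8, the chymotrypsin-like subunit that replaces Psmb5, had 88.7 and 195 normalised reads in KO-labelled cells with IFN-β, against 0 and 6.6 untreated. In WT-labelled cells it had 111, 129 and 106 with IFN-β, against 4.39, 3.87 and 1.03 untreated. The groups did not overlap in either genotype, and no untreated library held more than 7 reads. Over the summed reads, 298 with IFN-β against 7 untreated gave a 42-fold ratio in KO-labelled cells (95% counting interval 20.1 to 105). In WT-labelled cells 347 reads against 9 gave a 37.3-fold ratio (19.4 to 82.3). The intervals here and for Psmb9 and Tap1 cover counting error only. The limma log2 fold change of Psmb8 was 5.59 ± 0.89 (SE, adjusted p = 0.011) in KO-labelled cells and 4.95 ± 0.73 (adjusted p = 0.0055) in WT-labelled cells. The first call failed on leaving out KO-labelled IFN-β plating 2 (adjusted p = 0.12).

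Psmb9, which replaces Psmb6, had 51.7 and 246 normalised reads in KO-labelled cells with IFN-β, against 1.05 and 1.88 untreated. In WT-labelled cells it had 35, 66 and 72.2 with IFN-β, against 0, 0.968 and 0 untreated. The untreated groups thus rest on 3 reads in KO-labelled and 1 read in WT-labelled cells, and no untreated library exceeded the floor. The ratio was 105 (95% counting interval 35.5 to 511) in KO-labelled cells and 169 (30 to 6726) in WT-labelled cells. In limma, Psmb9 rose in KO-labelled (adjusted p = 0.0046) and WT-labelled cells (adjusted p = 0.0011), a fold change that depends on the pseudocount because so few untreated reads underlie it.

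Tap1, which forms the peptide transporter with Tap2, is encoded beside Psmb9. It had 1758 and 3094 normalised reads in KO-labelled cells with IFN-β, against 4.19 and 28.3 untreated. In WT-labelled cells it had 1298, 1413 and 1006 with IFN-β, against 8.78, 5.81 and 1.03 untreated. Both KO-labelled IFN-β libraries were above all 3 WT-labelled ones. The summed reads gave a 147-fold ratio in KO-labelled cells (5060 reads with IFN-β against 34, 95% counting interval 105 to 212) and a 239.8-fold ratio in WT-labelled cells (3718 reads against 15, 145 to 429). The limma log2 fold change was 7.56 ± 0.87 (adjusted p = 0.0013) in KO-labelled and 7.90 ± 0.71 (adjusted p = 0.0002) in WT-labelled cells. The calls of Tap1 and Psmb9 remained without any of the 10 libraries in turn, but both genes passed the filter on low counts only through the IFN-β libraries.

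These 3 genes and Tap2 sit together in the class II part of the mouse MHC on chromosome 17 (GRCm38, GENCODE M21, all protein-coding). Psmb9 lies at chr17:34181987-34187764 on the minus strand, Tap1 at chr17:34187553-34197225 on the plus strand, Psmb8 at chr17:34197721-34201454 on the plus strand and Tap2 at chr17:34203527-34216321 on the plus strand. Psmb9 and Tap1 are head to head, and their annotated bodies share 212 exonic bases on opposite strands. The strand setting of the counting is not stated, so reads in that overlap could fall to either gene or to neither. Their RefSeq start sites (GRCm38.p6) are 225 bases apart, and the promoter windows of the pair share 275 of 300 bases. The window of Tap1, 250 bases before to 50 bases after its start site (chr17:34187306-34187605, plus strand), is shown because it covers the start sites of both genes, with the bases between the start sites in capitals.
Tap1 and Psmb9 promoter: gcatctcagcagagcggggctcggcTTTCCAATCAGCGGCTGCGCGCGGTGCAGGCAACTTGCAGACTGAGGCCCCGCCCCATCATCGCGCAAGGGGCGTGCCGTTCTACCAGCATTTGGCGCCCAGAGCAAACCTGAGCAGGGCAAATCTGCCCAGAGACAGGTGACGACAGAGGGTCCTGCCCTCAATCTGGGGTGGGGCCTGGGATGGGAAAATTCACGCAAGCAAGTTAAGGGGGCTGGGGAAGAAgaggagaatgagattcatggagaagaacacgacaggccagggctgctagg
The core of the interferon-stimulated response element, searched on both strands as GAAANNGAAA, is not among the letters of this window. The NF-κB-like motif GGGNNNNNCC is, but 50.8% of the 32851 RefSeq promoter windows hold it.

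**Figure D2:**
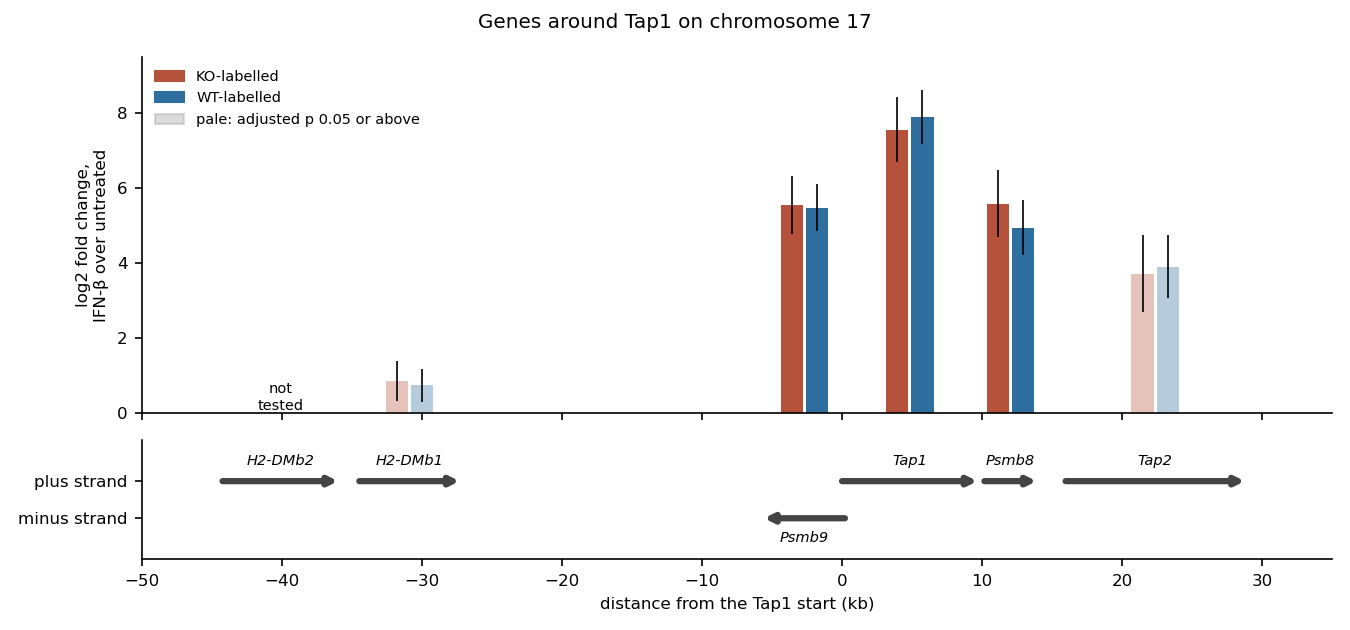
Log2 fold change of IFN-β over untreated (upper panel, bars with SE) for the genes around Tap1, drawn at their distance in kb from the Tap1 start, with gene bodies by strand below. Psmb9, Tap1 and Psmb8 rose in KO-labelled and WT-labelled cells. Pale bars did not pass without the replicate block, and H2-DMb2 did not pass the filter on low counts.

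Tap2, the other subunit of the transporter, was lower than Tap1 per kilobase of exon with IFN-β (113 against 443 normalised reads per kb in KO-labelled cells, 69.1 against 226 in WT-labelled cells). It had 216.5 and 636 normalised reads in KO-labelled cells with IFN-β, against 10.5 and 67.8 untreated. In WT-labelled cells it had 198, 301 and 285 with IFN-β, against 4.39, 35.8 and 24.8 untreated. The groups did not overlap, but in all 4 groups plating 1 was the lowest. Its log2 fold change was 3.73 ± 1.03 in KO-labelled cells (adjusted p = 0.22, and 0.0025 with the replicate block). In WT-labelled cells it was 3.90 ± 0.84 (adjusted p = 0.052, and 0.00047 with the block). H2-DMb1, a class II editor 21756 bp from Psmb9, had values of 0.85 ± 0.54 and 0.75 ± 0.44 in the same fits (adjusted p = 1 in both), which did not pass.

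Psmb10 replaces Psmb7 and, unlike Psmb8 and Psmb9, was well expressed without IFN-β. It lies outside the MHC at chr8:105935735-105938444 (minus strand). KO-labelled cells had 1316 and 2333 normalised reads with IFN-β, against 307 and 420.2 untreated. WT-labelled cells had 1827, 2714 and 3255 with IFN-β, against 478, 1039.9 and 807 untreated. Treated and untreated libraries did not overlap in either genotype, and untreated KO-labelled libraries lay below all untreated WT-labelled ones. Psmb10 rose by 2.28 ± 0.42 on the log2 scale in KO-labelled cells (adjusted p = 0.025, and 0.0001 with the block) and by 1.78 ± 0.34 in WT-labelled cells (adjusted p = 0.029, and 0.0001 with the block). Without the block, the KO-labelled call failed on leaving out KO-labelled untreated plating 1 or 2, KO-labelled IFN-β plating 2, WT-labelled untreated plating 3 or WT-labelled IFN-β plating 2 (highest adjusted p 0.23). The WT-labelled call failed on leaving out WT-labelled untreated plating 1 or 3 or WT-labelled IFN-β plating 2 or 3 (highest adjusted p 0.15).

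The constitutive subunits did not pass the test in either genotype, so the balance between the subunit sets was compared within each library. Psmb5 had 563 and 551 normalised reads in KO-labelled cells with IFN-β, against 538 and 594.5 untreated, and 582, 548 and 570.0 in WT-labelled cells with IFN-β, against 569.9, 679 and 620.4 untreated. Over Psmb5, Psmb6 and Psmb7, the log2 fold changes ran from −0.04 to 0.04 in KO-labelled and from −0.16 to −0.12 in WT-labelled cells. Per kilobase of exon, Psmb10 made up 40.9% and 51.5% of the sum of Psmb10 and Psmb7 in KO-labelled cells with IFN-β, against 14.4% and 16.3% untreated. In WT-labelled cells it made up 48.9%, 61.6% and 64.0% with IFN-β, against 19.4%, 33.5% and 30.6% untreated. These shares rest on exon lengths: before division by length, Psmb10 was below Psmb7 in all 5 IFN-β libraries, with log2 ratios of −1.53 to −0.18.

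Psmb8 and Psmb9 remained below their partners in every IFN-β library, in reads as well as per kilobase. Before division by length, the log2 ratio with IFN-β was −2.65 and −1.50 in KO-labelled and −2.38, −2.08 and −2.42 in WT-labelled cells for Psmb8 over Psmb5. Per kilobase of exon the shares were smaller, with exonic lengths of 3381 bp for Psmb8 and 899 bp for Psmb5. Psmb8 made up 4.02% and 8.6% of the sum with Psmb5 in KO-labelled cells with IFN-β, against 0% and 0.294% untreated, and 4.84%, 5.89% and 4.71% in WT-labelled cells with IFN-β, against 0.205%, 0.151% and 0.0442% untreated. Psmb9 reached at most 2.77% of the sum with Psmb6, in KO-labelled IFN-β plating 2. The ratio to the constitutive partner was higher with IFN-β by 5.34 on the log2 scale for Psmb8 over Psmb5 (40.6-fold), 5.62 for Psmb9 over Psmb6 (49.2-fold) and 2.07 for Psmb10 over Psmb7 (4.19-fold), averaged over the genotypes with a pseudocount of 1. For each ratio the exact two-sided permutation test within genotype gave p = 0.017, the smallest its 120 arrangements allow, and the same after adjustment over the 3 ratios. That p follows from the lack of overlap between treated and untreated libraries and adds no further support. Psmb8 and Psmb9 passed the filter on low counts only through the IFN-β libraries. Their fold values here rest on few untreated reads and depend on the pseudocount. In exact sign flips over the 5 numbered pairs, p was 0.062, the smallest that design allows. A transcript share is not a share of assembled proteasomes.

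**Figure D3:**
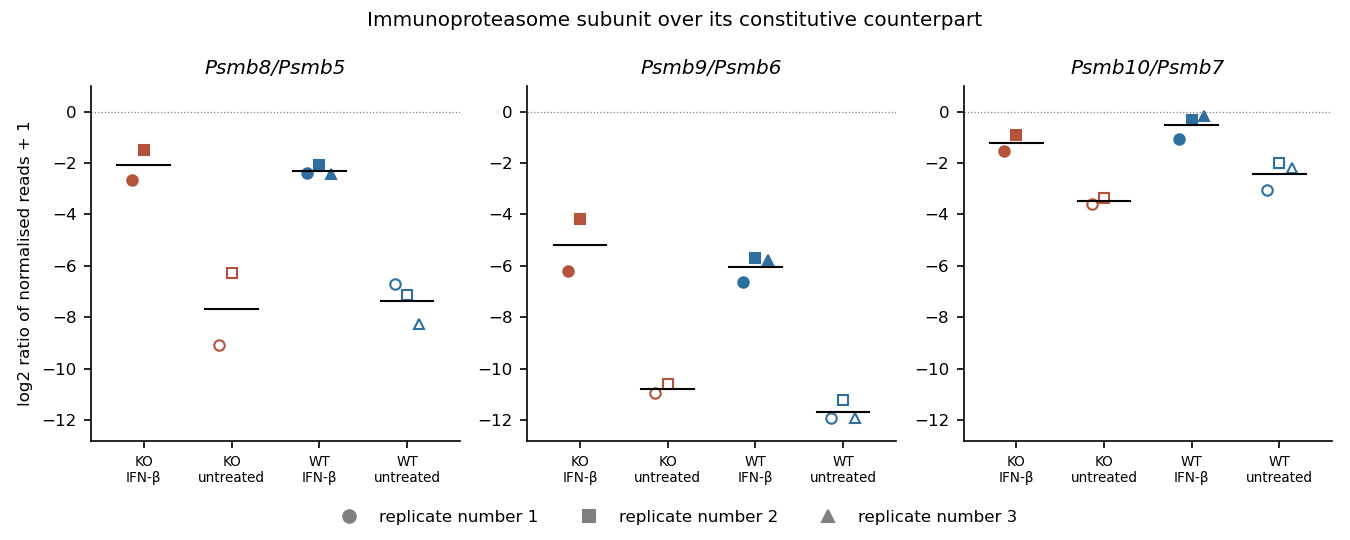
Log2 ratio of each immunoproteasome subunit to its constitutive counterpart (normalised reads plus 1) in each library, by group. Black lines are group means, and the dotted line marks equal reads. All IFN-β libraries lie above all untreated libraries of their genotype, with Psmb10 over Psmb7 nearest to equality.

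The activator genes Psme1 and Psme2, the α and β subunits of the ring that opens the core particle, showed smaller differences. Psme1 had 1439 and 2643 normalised reads in KO-labelled cells with IFN-β, against 530.5 and 1335 untreated, and 1661, 2021.5 and 2036.5 in WT-labelled cells with IFN-β, against 673, 1331 and 813 untreated. Psme2 had 655 and 989.7 in KO-labelled cells with IFN-β, against 247 and 531 untreated, and 660.2, 718 and 826 in WT-labelled cells with IFN-β, against 306, 538 and 431.5 untreated. The groups were apart in both genotypes, by as little as 1439 against 1335 for Psme1 in KO-labelled cells. Psme1 had log2 fold changes of 1.21 ± 0.47 in KO-labelled cells (adjusted p = 0.73, and 0.018 with the block) and 1.08 ± 0.38 in WT-labelled cells (adjusted p = 0.45, and 0.0091 with the block). Psme2 had 1.15 ± 0.39 (adjusted p = 0.49, and 0.018 with the block) and 0.82 ± 0.32 (adjusted p = 0.59, and 0.029 with the block).

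The blocked calls of Psme1 and Psme2 depended on single libraries. In KO-labelled cells both failed on leaving out KO-labelled untreated plating 1 or either KO-labelled IFN-β library (highest adjusted p 0.15 for Psme1 and 0.16 for Psme2). In WT-labelled cells Psme1 failed on leaving out WT-labelled untreated plating 3 or IFN-β plating 1 or 3 (up to 0.095), and Psme2 without any WT-labelled library other than IFN-β plating 2 (up to 0.20). The blocked calls of the other 8 genes remained without each of the 10 libraries in turn. Psme2 also has a near-identical retrogene, Psme2b, with no row of its own here, so its count is uncertain.

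Psme1 (chr14:55578123-55581529, plus strand) and Psme2 (chr14:55587441-55591113, minus strand) are neighbours. The promoter windows of 8 of the 10 genes were searched for the interferon response core GAAANNGAAA, and those of Psme1 and Erap1 hold it, beside 3.44% of all RefSeq windows. Both matches lie on the strand opposite to the gene and are in capitals in the sequences, shown because they are the only matches among these windows. That of Psme1 starts 9 bases after the start site (chr14:55578244-55578543, plus strand), and that of Erap1 4 bases before it (chr13:74639603-74639902, plus strand), both in GRCm38.p6.
Psme1 promoter: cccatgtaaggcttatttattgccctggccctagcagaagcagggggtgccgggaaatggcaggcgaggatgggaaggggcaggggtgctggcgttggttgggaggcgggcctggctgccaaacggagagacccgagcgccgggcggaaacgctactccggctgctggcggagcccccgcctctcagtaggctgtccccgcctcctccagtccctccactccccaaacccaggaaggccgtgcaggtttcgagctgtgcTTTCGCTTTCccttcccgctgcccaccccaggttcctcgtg
Erap1 promoter: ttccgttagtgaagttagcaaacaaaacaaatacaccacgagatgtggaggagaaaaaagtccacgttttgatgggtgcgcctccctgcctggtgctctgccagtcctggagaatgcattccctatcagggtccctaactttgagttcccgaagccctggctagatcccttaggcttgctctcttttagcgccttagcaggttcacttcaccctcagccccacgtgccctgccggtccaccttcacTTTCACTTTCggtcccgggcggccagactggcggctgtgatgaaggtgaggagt
The STAT-type motif TTCNNNGAA occurred in the window of Psmb8, at −97 from its start site, and in 8.3% of all windows. A match describes letters in these windows and does not show that a factor binds there.

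Erap1, the aminopeptidase that trims peptides in the endoplasmic reticulum, lies at chr13:74639568-74693201 (plus strand). It had 894.5 and 1178 normalised reads in KO-labelled cells with IFN-β, against 330.3 and 513.5 untreated, and 1040.2, 1274 and 1305 in WT-labelled cells with IFN-β, against 487.5, 534.5 and 699 untreated. The groups did not overlap. Erap1 rose by 1.32 ± 0.27 on the log2 scale in KO-labelled cells (adjusted p = 0.046, and 0.00099 with the block) and by 1.08 ± 0.22 in WT-labelled cells (adjusted p = 0.038, and 0.00078 with the block). Without the block, the KO-labelled call failed on leaving out any library but KO-labelled untreated plating 2 (highest adjusted p 0.44). The WT-labelled call failed on leaving out WT-labelled untreated plating 1 or 2 or any WT-labelled IFN-β library (up to 0.19). Erap1 shares 834 exonic bases with Cast on the opposite strand, and Cast did not pass in either genotype (log2 fold changes 0.12 ± 0.16 and 0.28 ± 0.13).

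Tapbp, which bridges the class I molecule and the transporter, was the most abundant of the 10 per kilobase of exon in every group. It lies at chr17:33915899-33929292 (plus strand). KO-labelled cells had 7488 and 12854 normalised reads with IFN-β, against 1422 and 4656 untreated. WT-labelled cells had 6759, 7626 and 7375 with IFN-β, against 1114.5, 2433 and 1774.5 untreated. The groups did not overlap, and KO-labelled plating 2 was the highest with IFN-β as well as untreated. The log2 fold change was 1.93 ± 0.53 in KO-labelled cells (adjusted p = 0.22, and 0.0058 with the block), and Tapbp rose by 2.10 ± 0.43 in WT-labelled cells (adjusted p = 0.041, and 0.00081 with the block). The call without the block failed on leaving out any of the 6 WT-labelled libraries (highest adjusted p 0.18).

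Tapbpl, a relative of tapasin that edits peptides outside the transporter complex, also varied with the replicate number. It lies at chr6:125223933-125231860 (minus strand). It had 379 and 1334 normalised reads in KO-labelled cells with IFN-β, against 116 and 432.5 untreated, and 264, 548 and 596 in WT-labelled cells with IFN-β, against 52.7, 186 and 167 untreated. In KO-labelled cells the groups overlapped, since IFN-β plating 1 lay below untreated plating 2. Within each number the IFN-β library was higher in all 5 pairs, by 1.55 to 2.30 on the log2 scale. Its log2 fold change was 1.66 ± 0.85 in KO-labelled cells (adjusted p = 1, and 0.0022 with the block) and 1.89 ± 0.69 in WT-labelled cells (adjusted p = 0.49, and 0.00024 with the block).

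**Figure D4:**
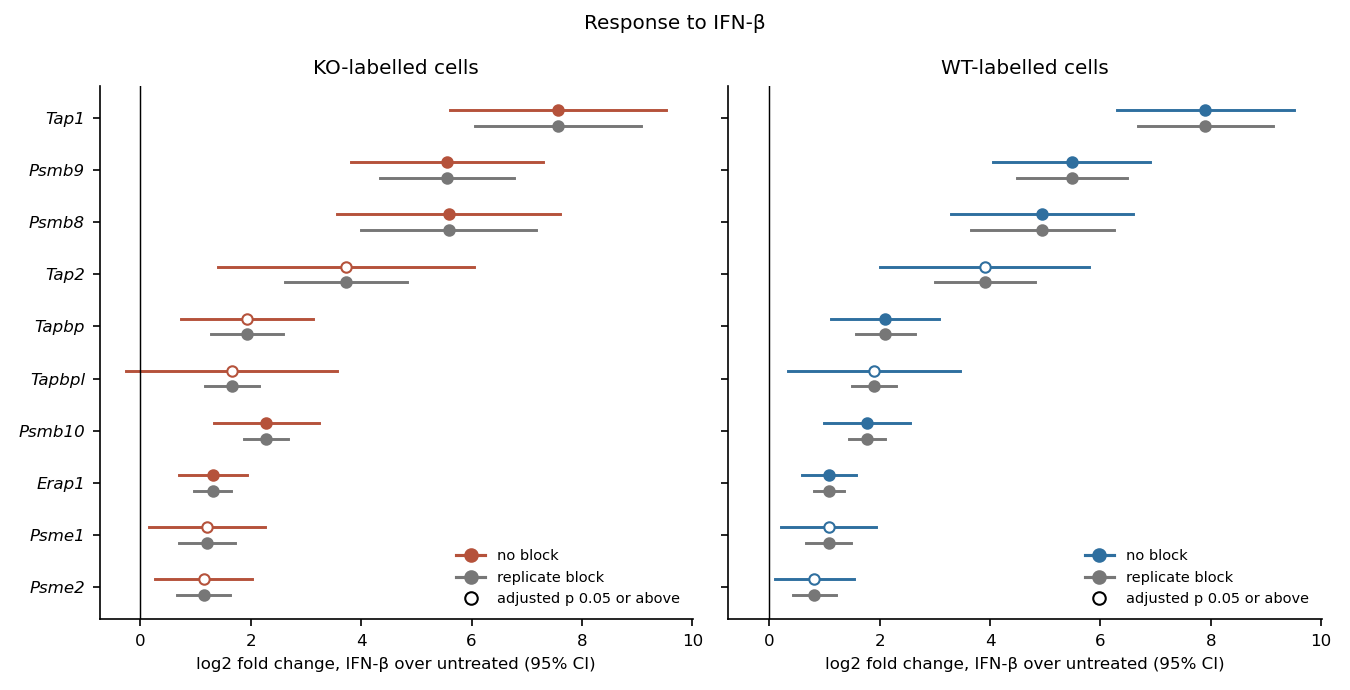
Log2 fold change of IFN-β over untreated with its 95% confidence interval for the 10 genes in KO-labelled (left) and WT-labelled cells (right). Coloured intervals are from the fit without a block, grey ones from the fit with the replicate block, and open points have an adjusted p of 0.05 or above. The blocked interval is the narrower for each gene, and all blocked points are filled.

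The replicate number moved with these genes apart from IFN-β. In the blocked fit, 8 of the 10 differed between libraries numbered 2 and 1 (adjusted p of 0.033 or less), all 8 being higher in number 2. Of all genes tested, 48.6% differed in either direction, and the share higher in number 2 was not counted separately. The difference was largest for Tap2 (1.88 ± 0.34 on the log2 scale) and Tapbpl (1.64 ± 0.15), and did not pass for Tap1 (0.73 ± 0.47, adjusted p = 0.22) or Psmb8 (1.03 ± 0.49, adjusted p = 0.11). The labels do not say what a number shared between groups marks. Both numbers are in all 4 groups, while number 3 is in the WT-labelled groups only.

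Between the labelled genotypes, no gene of the 10 passed in limma without the block, either with IFN-β or untreated, where 6.55% and 6.23% of all genes passed. The differences, KO-labelled minus WT-labelled, ran from −0.53 (Psmb10) to 1.03 (Psmb9) on the log2 scale with IFN-β and from −1.04 (Psmb10) to 1.26 (Tap1) untreated. At an unadjusted p under 0.05 there were 0 with IFN-β and 1 untreated, Psmb10. Every KO-labelled library lay above every WT-labelled library for Tap1 with IFN-β (as for 20% of all genes tested) and for Psmb9 untreated (15.7%), and below for Psmb10 untreated (15.9%).

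With the replicate block, 26% of all genes passed with IFN-β and 26.6% untreated, and among them were 2 of the 10. Tapbpl was higher in KO-labelled cells by 0.92 ± 0.20 with IFN-β (adjusted p = 0.013) and by 1.15 ± 0.20 untreated (adjusted p = 0.0049). Psmb10 was lower in untreated KO-labelled cells (−0.91 ± 0.17, adjusted p = 0.0057), and had −0.40 ± 0.17 with IFN-β (adjusted p = 0.11). Both untreated calls failed on leaving out KO-labelled untreated plating 2 (adjusted p = 0.057 for Tapbpl and 0.066 for Psmb10). The call with IFN-β failed on leaving out KO-labelled IFN-β plating 2 or WT-labelled IFN-β plating 2 (highest adjusted p 0.12). Since these shares are close to 1 gene in 4, calls for 1 or 2 of 10 genes do not set the group apart.

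Whether the response to IFN-β itself differed between the genotypes was tested as the interaction. No gene of the 10 passed, and none had an unadjusted p under 0.05, with or without the block. Of all genes tested, 0% passed in limma without the block (0 genes, 36 at an unadjusted p under 0.05) and with it (0 genes, 151 unadjusted), edgeR called 0 (39 unadjusted) and DESeq2 called 1. The intervals are wide: the response in KO-labelled minus that in WT-labelled cells was −0.34 for Tap1 (95% interval −2.87 to 2.19), 0.07 for Psmb9 (−2.18 to 2.32) and 0.51 for Psmb10 (−0.72 to 1.73, and −0.01 to 1.02 with the block). A p that misses the threshold does not show equal responses, and differences of 1 or more on the log2 scale lie within most of these intervals.

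Ranked per kilobase of exon, the 10 genes kept Tapbp at the top and Psmb9 at the bottom of every group. The order depends on the lengths, each the union of all annotated exons of the gene. Before division by length, Psmb9 was above Psmb8 in KO-labelled cells with IFN-β (means of 148.9 and 141.9 normalised reads). With IFN-β in KO-labelled cells the means were 2803 normalised reads per kb for Tapbp, 1070.0 for Psmb10, 924 for Psme1, 466 for Psme2, 443 for Tap1, 364 for Tapbpl, 142 for Erap1, 113 for Tap2, 42.0 for Psmb8 and 40.7 for Psmb9. Of the neighbours in that order, only Tapbp and Psmb10, and Psme1 and Psme2, had libraries that did not overlap. In untreated KO-labelled cells the order began with Tapbp (838), Psme1 (422) and Psme2 (221) and ended with Tap1 (2.96), Psmb8 (0.98) and Psmb9 (0.401). Tap1 was thus 8th of the 10 without IFN-β and 5th with it. In WT-labelled cells with IFN-β the means per kb were 1999 for Tapbp, 1524 for Psmb10, 863 for Psme1, 416.5 for Psme2, 226 for Tap1, 199.5 for Tapbpl, 166 for Erap1, 69.1 for Tap2, 34.1 for Psmb8 and 15.8 for Psmb9. Libraries of neighbours overlapped there for Tapbp and Psmb10, for Tap1 and Tapbpl, and for Tapbpl and Erap1. In untreated WT-labelled cells Tap1 was again 8th, at 0.951 per kb, beside 0.917 for Psmb8. In both untreated groups the libraries of Tap1 overlapped those of Tap2 above it and of Psmb8 below it. In untreated KO-labelled cells Psmb8 and Psmb9 overlapped as well. These ranks rest on few reads, with 34 for Tap1 and 7 for Psmb8 in untreated KO-labelled cells and 15 and 9 in untreated WT-labelled cells.

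No gene in a set of other proteasome and class I loading genes, which is not all of the machinery, passed the test of the response to IFN-β. The 3 constitutive catalytic subunits, 8 other activators, inhibitors and assembly factors, 11 other core subunits, 8 chaperones of class I loading and 8 other peptidases were all tested, and none of them was called in either genotype, with or without the block. Psme3 and Psme4, activators that do not depend on interferon, had log2 fold changes of 0.03 and −0.02 in KO-labelled and 0.07 and 0.03 in WT-labelled cells. Psmf1, a proteasome inhibitor, had 0.13 and 0.08, and the assembly chaperone Pomp 0.06 and −0.06. The largest value in these lists was 1.03, among the peptidases in WT-labelled cells, and did not pass. Between the genotypes none of these genes was called without the block. With it, Psmf1, Psma6, Calr and Pdia3 were called in both treatments, and Psme4, Psmb4, Psma3 and Ide with IFN-β only. In those fits 26% of all genes passed with IFN-β and 26.6% untreated.

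Several class I chains and regulators rose as well. Of 9 class I genes tested, 4 rose in KO-labelled cells (B2m, H2-D1, H2-K1 and H2-M3) and 6 in WT-labelled cells, of which H2-D1, B2m, H2-K1 and H2-Q4 had the lowest adjusted p, and 7 rose in each genotype with the block. H2-Q4, H2-T23 and H2-T24 passed the filter on low counts only through the IFN-β libraries, so their calls follow in part from it. B2m, the light chain, rose by 1.86 ± 0.15 in KO-labelled and 1.64 ± 0.13 in WT-labelled cells on the log2 scale. H2-M3 lost its KO-labelled call without KO-labelled untreated plating 1 or IFN-β plating 2 (highest adjusted p 0.14), as did Irf2 (up to 0.095). Class I genes are near copies of each other, so their counts may be split. Of 14 regulators tested, 5 rose in both genotypes, among them Stat2 and Irf9, which act downstream of the interferon receptor, Nlrc5, the class I transactivator, and Irf2. With the block 7 did, with Irf1 and Rfx5 added. Of all genes tested, 1.83% rose in KO-labelled and 2.21% in WT-labelled cells without the block, and 3.37% and 4.68% with it.

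Nlrc5 differed between the genotypes without IFN-β. It had 139 and 477.5 normalised reads in KO-labelled cells with IFN-β, against 0 and 0.942 untreated, and 692, 812 and 927 in WT-labelled cells with IFN-β, against 12.1, 26.1 and 28.9 untreated. Untreated KO-labelled libraries were at or below the floor, and all untreated WT-labelled ones were above it. Untreated, it was lower in KO-labelled cells (−3.98 ± 0.57, adjusted p = 0.0042, 0.031 at most without any library). With IFN-β the difference was −1.64 ± 0.57 (adjusted p = 0.14, and 0.013 with the block). Nlrc5 was the only one of the 14 regulators called between genotypes without the block, where 6.23% of all genes passed untreated. In the blocked fit Rfx5, Rfxank and Irf2 were called higher in KO-labelled cells in both treatments. There 26% of all genes passed with IFN-β and 26.6% untreated.

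Of genes whose bodies lie within 25 kb of the 10, other than the 10 themselves, 17 were tested and 3 rose in both genotypes. Daxx, a histone chaperone partner 308 bp from Tapbp, rose by 2.57 ± 0.16 in KO-labelled and 2.33 ± 0.13 in WT-labelled cells on the log2 scale (adjusted p = 4.8e-05 and 1.4e-05). Irf9, 12457 bp from Psme2, rose by 3.35 ± 0.27 and 3.02 ± 0.22. Rnf31, a ubiquitin ligase subunit 594 bp from Psme2, rose by 1.30 ± 0.19 and 1.27 ± 0.16, and its KO-labelled call failed on leaving out KO-labelled untreated plating 1 or IFN-β plating 2 (highest adjusted p 0.094). The share of 17.6% stands beside 1.83% and 2.21% of all genes.

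Over the 10 libraries, the values of the 10 genes moved together. Pearson correlations between pairs of them ran from 0.708 (Tapbpl and Psmb10) to 0.988 (Tap2 and Tapbp), over libraries that share treatment and number. Among 11028 other genes, those most like the mean of the 10 were Nmi (r = 0.993), Rbm43 (0.992), Isg20 (0.991), Trafd1 (0.991) and Cutc (0.988). Nmi had 652 and 1057 normalised reads in KO-labelled cells with IFN-β, against 49.3 and 179 untreated, and 628, 831 and 819 in WT-labelled cells with IFN-β, against 48.3, 122 and 96.0 untreated. Like most of the 10, it was lowest in plating 1 of every group. These correlations describe 10 libraries in 4 groups and carry no test.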

How the data were processed

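Per the values, the deposited files hold a scaled signal, namely gene counts over a library factor: 100% of values in each library were whole multiples of the worth of 1 read, within 0.001 reads, so reads were recovered. Per the submitters' processing notes, cutadapt 1.13, STAR 2.5.2a, HTSeq and DESeq2 were used with mm10, while the annotation and strand setting are not given in the sources used here. Directional libraries were made from total RNA, per the series' design text.

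Genes passed filterByExpr (edgeR 4.0.16, minimum count 10, recovered reads), which left 12313. The test was limma-trend from limma 3.58.1 in R 4.3.3, taking log2 after adding 1, with 4 group means over 10 libraries, two-sided, Benjamini-Hochberg over all genes, called below 0.05, in 5 comparisons. It was tested on simulated data. Alternatives were edgeR, DESeq2 1.42.0, other pseudocounts, filters and scaling, fewer samples, the replicate block and left-out libraries. The replicate numbers come from the titles and pair the samples by correlation alone. The named genes are the 10, their constitutive partners, passing genes of set lists (all where 5 or fewer pass, otherwise the 4 of lowest adjusted p), Slfn2, genes within 25 kb and the 5 most correlated. Members and lists were chosen with earlier results of these data known. Gene models are GENCODE M21, with exon lengths as the union of all annotated exons of a gene, and promoter windows RefSeq GRCm38.p6 (8 of 10 matched). Some genes of these lists are not reported here by name.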

Additional observations from a re-analysis of the deposited data

How the results depend on the processing

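In the IFN-β responses the 20 values of the 10 genes stayed positive under all 400 recomputations, which kept 336 of them on the same side of the threshold, while 38 lost and 26 gained a call. With the replicate block, 10 genes were called in KO-labelled and 10 in WT-labelled cells by limma and by edgeR, against 5 and 6 without it. The edgeR counts without the block were 4 and 5, and the DESeq2 counts 7 and 7. With only the 2 groups compared, 0 of the 10 were called in KO-labelled cells and 7 in WT-labelled cells. Leaving out single platings gave 2 to 5 calls in KO-labelled and 3 to 7 in WT-labelled cells, and with the block 8 to 10 in each. That blocked variant was chosen after seeing the data. Between the genotypes, the block gave 1 call with IFN-β (2 in edgeR; 0 to 2 on leaving out platings) and 2 untreated (2 in edgeR; 0 to 4).

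Over all genes, the response of KO-labelled cells had 227 calls, 429 with the block, 425 in edgeR with the block, 10 with only the groups compared and 134 to 218 on leaving out platings. The response of WT-labelled cells had 272 calls, 410 in DESeq2, 609 with the block and 619 in edgeR with the block. Between genotypes with IFN-β there were 807 calls, 1504 in DESeq2, 3203 with the block, 3285 in edgeR with the block and 286 to 849 on leaving out platings. Untreated there were 767, 1513 in DESeq2, 280 with only the groups compared, 3275 with the block, 3343 in edgeR with the block and 340 to 694 on leaving out platings. The interaction had 0, and 1 in DESeq2. The cause of these shifts was not tested.

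Of 30 values between genotypes and for the interaction, none called without the block, 21 changed sign under some alternative, never in a fit where the value passed. Among those printed in the report, the interaction of Tap1 was 0.07 with a pseudocount of 5 and −1.58 to 0.91 on leaving out platings. That of Psmb9 was −0.43 in edgeR, −0.64 in DESeq2, −0.61 in edgeR with the block, −0.39 with a pseudocount of 0.5 and −1.04 to 1.18 on leaving out platings. With IFN-β, KO-labelled minus WT-labelled values on leaving out platings ran from −0.22 to 1.59 for Tapbpl and from −0.09 to 2.14 for Psmb9, and untreated from −0.02 to 1.86 for Tapbpl. The subunit ratios had 5.34, 5.62 and 2.07 in the paired test, whose smallest exact p is 0.062. With no overlap between groups, every left-out plating gives the smallest exact p again (0.017), which says nothing about stability, and the ratios themselves ran from 4.65 to 6.04, 5.10 to 6.13 and 1.91 to 2.22. Depth limits Psmb9 and Psmb8 without IFN-β, with at most 9 summed reads per group.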
